A study of Mus musculus with 7 samples.

Results

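The genes described here encode the nuclear subunits of the mitochondrial respiratory chain and of ATP synthase. They were taken by symbol alone: Nduf followed by a, b, c, s or v and a digit, Sdha to Sdhd, and all symbols that begin with Uqcr, Cox4 to Cox8 or Atp5, with symbols of pseudogenes ending in -ps left out. This rule found 86 of the 16019 genes measured; the rule itself uses no measured value. By symbol, 39 belong to complex I, 4 to complex II, 8 to complex III, 18 to complex IV and 17 to complex V, with Ndufa4 and its relative Ndufa4l2 counted under complex IV. Of the 86, RefSeq marks 85 as protein-coding and 1, Ndufs6b, as a pseudogene, which the rule keeps because its symbol does not end in -ps.

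RNA was sequenced from the prostate of mice with experimental autoimmune prostatitis (EAP), an immune-driven inflammation of the gland that every sample shares. In the LIT-927 group, 4 libraries (replicates 1 to 4) came from EAP mice injected intraperitoneally for 14 days with LIT-927 at 25 mg/kg per day. LIT-927 neutralises the chemokine CXCL12: bound to this small molecule, CXCL12 cannot engage the receptor CXCR4. In the vehicle group, 3 libraries (replicates 1, 3 and 4) came from EAP mice injected over the same 14 days with the solvent, methyl-β-cyclodextrin. No prostate without EAP was analysed here, and the sources used here do not give strain, age or the way the disease was induced. Since the labels leave it unsaid whether each library is a separate animal, p-values reflect only how far these samples spread, and some of that spread may be technical.

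Complexes I and II pass electrons from NADH and succinate to ubiquinone, complex III passes them on to cytochrome c, and complex IV hands them to oxygen. Complexes I, III and IV pump protons while doing so, and complex V, ATP synthase, uses the return flow of protons to make ATP. A few core subunits of all these complexes except complex II are encoded in mitochondrial DNA and are not among the genes measured, so what follows covers the nuclear share of each complex. In the human prostate, the secretory epithelium is known as a tissue that diverts citrate from oxidation into its secretion.

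The libraries had similar depth but varied in tissue make-up. Whole fragments recovered from the values summed to between 32043629 and 34804550 per library in the LIT-927 group and to between 33617248 and 35257978 in the vehicle group. All 8 prostate luminal markers were detected, and they summed to 6374, 7466, 166300 and 16790 FPKM in LIT-927 replicates 1 to 4. In vehicle replicates 1, 3 and 4 they summed to 20920, 74580 and 10030 FPKM. They did not move together: Tgm4 was lowest, at 25.97 FPKM, in LIT-927 replicate 3, where the sum was highest. The 6 urothelium markers summed to 330.3 and 266.8 FPKM in LIT-927 and vehicle replicate 3, and to 26.8 to 43.7 FPKM elsewhere. Transcripts of 7 seminal vesicle markers took 28.9% to 50.9% of the summed FPKM in LIT-927 libraries and 11.4% to 67.4% in vehicle libraries. The unit, FPKM, counts fragments per kilobase of a gene and per 1000000 fragments sequenced, and a library with much seminal vesicle RNA therefore has lower values for other genes. Vehicle replicate 4 had the largest seminal vesicle share and vehicle replicate 1 the smallest. In such bulk samples, fewer cells of a type and less RNA per cell cannot be told apart.

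Most subunits were abundant, and as deposited the groups overlapped in each of the 86 members. Of the 86 members, 77 had a mean of at least 10 FPKM over the 7 libraries, and the lowest of these stood at 20.8 FPKM. The other 9 lay at 5.60 FPKM or less. These 9 were the tissue-restricted isoforms Cox4i2, Cox6a2, Cox6b2, Cox7a1, Cox8b and Ndufa4l2, and the copies Ndufb4b, Ndufb4c and Ndufs6b. The copies are near-identical to Ndufb4 and Ndufs6, with which they may share reads, so their values are uncertain. All 86 members entered every fit unless a minimum is named, and 80 were above 1 FPKM in every library.

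The level of the most abundant member shows how a typical subunit was distributed. Cox4i1 (chromosome 8, 120668225 to 120674209, GRCm38), the common form of a regulatory subunit of cytochrome c oxidase, stood at 584.8, 476.4, 451.5 and 651.7 FPKM in LIT-927 replicates 1 to 4, and at 699.0, 492.9 and 263.4 FPKM in vehicle replicates 1, 3 and 4. The vehicle group held both its highest and its lowest value. The mean was 541.1 ± 93.7 FPKM in LIT-927 prostates (SD, n = 4) and 485.1 ± 218 FPKM in vehicle prostates (SD, n = 3).

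The same shape recurred in nearly all abundant members. Of the 77 members with a mean of at least 10 FPKM, 75 had their lowest value in vehicle replicate 4, while 50 had their highest in vehicle replicate 1 and 27 had it in LIT-927 replicate 1. The highest and the lowest library of a group differed by a median of 1.43-fold within the LIT-927 group and 2.14-fold within the vehicle group. Within the LIT-927 group, 62 of the 77 were lowest in replicate 3. The members together took 0.967%, 0.775%, 0.692% and 0.911% of all fragments in LIT-927 replicates 1 to 4, against 1.04%, 0.743% and 0.482% in vehicle replicates 1, 3 and 4.

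The seminal vesicle share was 40.0%, 50.9%, 37.4% and 28.9% in LIT-927 replicates 1 to 4, and 11.4%, 40.6% and 67.4% in vehicle replicates 1, 3 and 4. It ran opposite to the members' share in the vehicle group. In the LIT-927 group, the lowest members' share, in replicate 3, stood beside the second-lowest seminal vesicle share. The seminal vesicle markers did not move together there: replicate 3 was the highest LIT-927 library for Svs1, at 11060 FPKM, and the lowest for Svs2, at 49760 FPKM. The 10 most abundant genes took 46.05%, 55.8%, 64.6% and 36.6% of the summed FPKM in LIT-927 replicates 1 to 4. In vehicle replicates 1, 3 and 4 they took 22.2%, 53.3% and 72.3%. The part of tissue make-up in the levels was not tested. To set libraries side by side, FPKM were also divided by a median-of-ratios factor, the median over genes of each library's ratio to the genes' geometric mean. The factors were 1.13, 1.01, 0.811 and 1.16 in LIT-927 replicates 1 to 4, and 1.30, 1.08 and 0.663 in vehicle replicates 1, 3 and 4. With this scaling, vehicle replicate 4 was the lowest library for 10 of the 77 members, not 75, and the median ratio of vehicle replicate 1 to vehicle replicate 4 changed from 2.14 to 1.09.

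**Figure D1:**
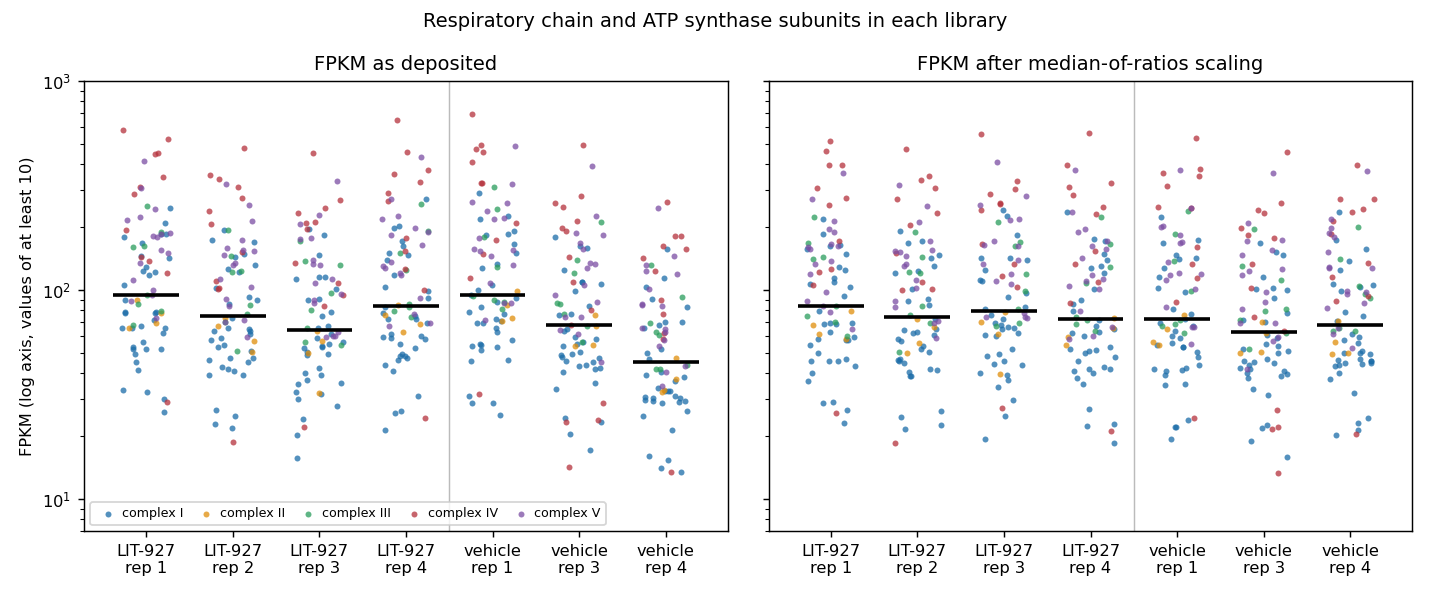
FPKM on a log axis of the members with at least 10 FPKM in each library, as deposited (left) and divided by median-of-ratios factors (right), with 1 point per member coloured by complex and a bar at the median of all 86 members. As deposited, the median lay at 95.1, 75.2, 64.7 and 84.0 FPKM in LIT-927 replicates 1 to 4 and at 94.5, 67.9 and 45.3 FPKM in vehicle replicates 1, 3 and 4; scaled, it lay between 72.7 and 83.9 in LIT-927 libraries and between 63.1 and 72.5 in vehicle libraries.

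The comparison of LIT-927 with vehicle asked how blocking CXCL12 changed the inflamed prostate, which for these genes means the transcripts of oxidative phosphorylation. As deposited, 78 of the 86 members had a higher mean log2(FPKM + 1) with LIT-927, which is 90.7% of them beside 55.5% of all genes. The median member difference, LIT-927 minus vehicle, was 0.21 on the log2(FPKM + 1) scale, beside 0.02 over all genes. No member was called at an adjusted p under 0.05 (limma with Benjamini-Hochberg adjustment over all genes), and none of the 16019 genes was either, a background of 0.0%. At an unadjusted p under 0.05, 0 members passed, beside 115 genes higher with LIT-927 (0.718%) and 474 lower (2.96%). The groups overlapped in all 86 members, where every LIT-927 library was above every vehicle library in 1.08% of genes and below in 2.12%.

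The direction as deposited rested on 1 library. Without vehicle replicate 4, 24 of the 86 members had the higher mean with LIT-927 (27.9%, beside 25.0% of all genes), and the median member difference was -0.07, beside -0.12 over all genes. After median-of-ratios scaling, 74 of 86 were higher with LIT-927 (86.0%, beside 50.3% of all genes), with a median difference of 0.15 beside 0.00 over all genes. That median stayed between 0.11 and 0.21 when each of the 7 libraries was left out in turn, with 64 to 77 members higher. No gene was called with this scaling (a background of 0.0%) and the smallest adjusted p of a member was 0.568, while 9 members passed an unadjusted p under 0.05, all higher with LIT-927, a direction in which 2.92% of all genes passed. None passed in the lower direction, in which 5.51% of all genes did. Leukocyte markers lay the other way between the groups: all 5 had a lower mean with LIT-927, and they summed to 109.1, 132.7, 62.9 and 181.1 FPKM in LIT-927 replicates 1 to 4, against 528.8, 175.2 and 518.2 FPKM in vehicle replicates 1, 3 and 4. As deposited, Ptprc and Cd3e, of leukocytes and T cells, were lower in every LIT-927 library than in any vehicle library. Over all genes, 2.12% lay that way. Cd74, Lyz2 and Cd79a overlapped between the groups as deposited, as did the sum. After scaling, Cd74 and Lyz2 also lay below in every LIT-927 library, beside 4.99% of all genes. The part of leukocyte content in the members' difference was not tested.

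**Figure D2:**
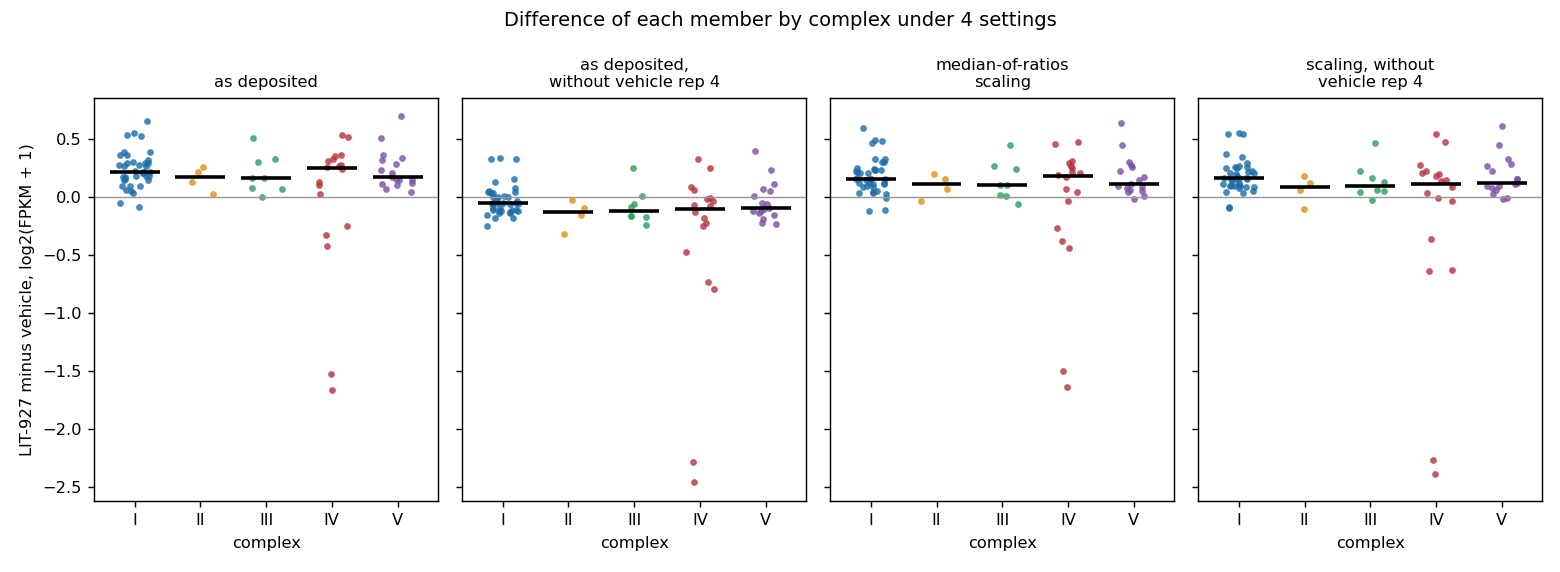
Difference of each member in log2(FPKM + 1), LIT-927 minus vehicle, by complex, as deposited and scaled, each with all 7 libraries and without vehicle replicate 4, with 1 point per member and a bar at the median of the complex. As deposited, the overall median changed from 0.21 to -0.07 without that library; with scaling it was 0.15 with all libraries and 0.14 without it, and the lowest 2 points in each panel are Cox8b and Cox6a2.

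Complex I, the NADH dehydrogenase, had 37 of 39 subunits with a higher mean with LIT-927 as deposited and 36 after scaling, with medians of 0.21 and 0.15 on the log2(FPKM + 1) scale. Ndufv1 and Ndufs1, of its catalytic core, differed little between the groups. Ndufv1, the flavin subunit that binds NADH, had 56.7, 47.1, 40.2 and 49.3 FPKM in LIT-927 replicates 1 to 4, and 57.4, 50.4 and 31.1 FPKM in vehicle replicates 1, 3 and 4. Ndufs1, the largest iron-sulfur subunit, averaged 21.5 ± 4.38 FPKM in LIT-927 prostates (SD, n = 4) and 19.7 ± 5.94 FPKM in vehicle prostates (SD, n = 3). The differences of Ndufv1 and Ndufs1 were 0.09 (SE 0.25) and 0.14 (SE 0.27) as deposited, smaller than their errors.

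The larger differences in complex I lay among accessory subunits, which surround the catalytic core. Ndufs5 (chromosome 4, 123712710 to 123718186), on the side of the complex that faces the intermembrane space, had 33.1, 25.0, 24.2 and 31.2 FPKM in LIT-927 replicates 1 to 4, and 28.7, 17.2 and 14.1 FPKM in vehicle replicates 1, 3 and 4. The groups overlapped only through vehicle replicate 1. Its difference of 0.53 (SE 0.27, 95% confidence interval -0.09 to 1.15) was not called (limma adjusted p = 0.998). Ndufa5 (chromosome 6, 24518662 to 24527690), an accessory subunit of the arm that extends into the matrix, had 106.1, 73.9, 53.5 and 77.7 FPKM in LIT-927 replicates 1 to 4, and 78.8, 45.1 and 30.7 FPKM in vehicle replicates 1, 3 and 4. Again vehicle replicate 1 lay among the LIT-927 values. Its difference was 0.65 (SE 0.36) and was not called (limma adjusted p = 0.998).

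Complex II, succinate dehydrogenase, is the one complex with no mitochondrially encoded subunit and is also part of the tricarboxylic acid cycle. All 4 of its subunits had a higher mean with LIT-927 as deposited and 3 did after scaling, with medians of 0.17 and 0.11. Sdha, the flavoprotein that oxidises succinate, had 77.2, 67.6, 57.2 and 69.0 FPKM in LIT-927 replicates 1 to 4, and 71.0, 67.1 and 37.4 FPKM in vehicle replicates 1, 3 and 4. Apart from vehicle replicate 4, the libraries fell within one range. Sdhb, the iron-sulfur subunit, averaged 78.0 ± 11.7 FPKM in LIT-927 prostates (SD, n = 4) and 74.1 ± 26.0 FPKM in vehicle prostates (SD, n = 3), and the membrane anchor Sdhc averaged 59.0 ± 7.14 and 53.3 ± 20.3 FPKM in the same groups. The other anchor, Sdhd, was at 57.2 ± 19.9 FPKM in LIT-927 prostates (SD, n = 4) and 57.5 ± 26.0 FPKM in vehicle prostates (SD, n = 3), and its difference was 0.02 as deposited and -0.04 after scaling.

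In complex III, the cytochrome bc1 complex, 7 of 8 subunits had a higher mean with LIT-927 both as deposited and after scaling, with medians of 0.16 and 0.10. Uqcrfs1, the Rieske iron-sulfur protein, had 95.2, 76.5, 79.8 and 83.3 FPKM in LIT-927 replicates 1 to 4, and 89.5, 77.2 and 42.1 FPKM in vehicle replicates 1, 3 and 4. Its values overlapped between the groups as deposited. Uqcrb, a small subunit near the ubiquinone-binding region, had 160.4, 124.0, 97.2 and 125.1 FPKM in LIT-927 replicates 1 to 4, and 129.0, 85.3 and 60.9 FPKM in vehicle replicates 1, 3 and 4. Only vehicle replicate 1 reached the LIT-927 range. The structural core subunit Uqcrc1 was level, at 80.6 ± 9.68 FPKM in LIT-927 prostates (SD, n = 4) and 81.5 ± 16.1 FPKM in vehicle prostates (SD, n = 3), a difference of -0.00 (SE 0.22).

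Complex IV, cytochrome c oxidase, had the widest spread of differences, from -1.67 to 0.53, and its lowest differences were those of tissue-restricted isoforms. As deposited, 13 of its 18 genes had a higher mean with LIT-927, and 12 did after scaling, with medians of 0.24 and 0.18. Cox7b (chromosome X, 106015700 to 106022450), a small subunit of the holoenzyme, had the smallest p of the complex, with 138.3, 101.0, 108.0 and 99.7 FPKM in LIT-927 replicates 1 to 4, and 114.4, 68.4 and 58.5 FPKM in vehicle replicates 1, 3 and 4. Vehicle replicate 1 again lay inside the LIT-927 range. Its difference of 0.52 (SE 0.28) was not called (limma adjusted p = 0.998). The common isoforms Cox6a1, Cox6b1, Cox7a2 and Cox8a had differences of 0.13, 0.27, 0.32 and 0.31, each with an SE of 0.34 to 0.42. Ndufa4, first described as a complex I protein and now placed in complex IV, was among the most abundant members, at 346.5 ± 77.4 FPKM in LIT-927 prostates (SD, n = 4) and 294.6 ± 159 FPKM in vehicle prostates (SD, n = 3). Cox7a2l, which helps to join complexes III and IV into supercomplexes, was level, at 117.5 ± 26.1 FPKM in LIT-927 prostates (SD, n = 4) and 119.9 ± 49.0 FPKM in vehicle prostates (SD, n = 3).

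All 17 subunits of complex V had a higher mean with LIT-927 as deposited and 16 did after scaling, with medians of 0.17 and 0.11. In the catalytic core, the differences of Atp5b and Atp5a1 were smaller than their errors. Atp5b, the beta subunit that holds the catalytic sites, had 412.5, 323.0, 331.5 and 432.3 FPKM in LIT-927 replicates 1 to 4, and 490.0, 391.2 and 246.0 FPKM in vehicle replicates 1, 3 and 4. Its difference was 0.04 (95% confidence interval -0.73 to 0.82) as deposited and -0.02 after scaling. Atp5a1, the alpha subunit, averaged 222.8 ± 15.96 FPKM in LIT-927 prostates (SD, n = 4) and 206.0 ± 66.5 FPKM in vehicle prostates (SD, n = 3). For Atp5a1 the difference as deposited was 0.17 (SE 0.29, 95% confidence interval -0.51 to 0.84). Atp5g1, Atp5g2 and Atp5g3, which encode the same mature c subunit of the rotor ring, had differences of 0.15, 0.10 and 0.11.

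The largest positive difference of any member as deposited was that of Atp5md (chromosome 19, 47083471 to 47090647), a small membrane subunit of ATP synthase also called DAPIT. It had 178.7, 132.0, 133.4 and 127.7 FPKM in LIT-927 replicates 1 to 4, and 154.6, 74.7 and 57.4 FPKM in vehicle replicates 1, 3 and 4. LIT-927 replicate 1 stood above the other LIT-927 libraries and vehicle replicate 1 above 3 of the 4. The difference was 0.69 (SE 0.35) as deposited and 0.63 (SE 0.22) after scaling, and neither was called (limma adjusted p = 0.998 and 0.575).

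After median-of-ratios scaling, every LIT-927 library lay above every vehicle library in 9 members, 10.5% of them, where 4.04% of all genes did so. None lay below, where 4.99% of all genes did. The 9 were 6 accessory subunits of complex I (Ndufa5, Ndufb1, Ndufs5, Ndufb3, Ndufb11 and Ndufa12), Uqcrb and Uqcrfs1 of complex III, and Atp5pb, the b subunit of the peripheral stalk of ATP synthase. Their scaled differences ran from 0.22 to 0.59, and their adjusted p from 0.568 to 0.622 (limma), so none was called. The count depended on the scaling: it was 0 as deposited, and 6 with upper-quartile factors, where 3.38% of all genes lay above. With a library left out, groups overlap less by construction, and the count ran from 10 to 44 while the share of all genes ran from 4.89% to 9.66%. It was 24 without LIT-927 replicate 4, 44 without vehicle replicate 1 and 14 without vehicle replicate 4, where 8.54%, 8.66% and 8.30% of all genes lay above. It was 12 without LIT-927 replicate 3, beside 9.66% of all genes, and 10 without vehicle replicate 3, beside 7.17%.

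The scaled values of 3 of these genes show how far apart the groups lay. Ndufs5 had scaled FPKM of 29.2, 24.7, 29.9 and 27.0 in LIT-927 replicates 1 to 4, and 22.0, 15.97 and 21.3 in vehicle replicates 1, 3 and 4. Uqcrb had scaled FPKM of 141.4, 122.5, 119.8 and 108.3 in the same LIT-927 libraries, and 99.0, 79.3 and 91.9 in the vehicle libraries. Ndufb1, an accessory subunit of the membrane arm, had 109.0, 84.9, 93.0 and 85.8 in the LIT-927 libraries, and 76.9, 52.4 and 70.7 in the vehicle libraries. In all 3 the lowest scaled value was that of vehicle replicate 3, and the gap between the groups was smaller than the range within either of them.

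Of the other 6, Ndufa5 had the largest scaled difference, 0.59 (SE 0.17), with 65.9 to 93.5 scaled FPKM in LIT-927 libraries and 41.9 to 60.5 in vehicle libraries. Uqcrfs1 came nearest to an overlap, with its lowest LIT-927 library at 72.1 scaled FPKM and its highest vehicle library at 71.8. Ndufa12, an accessory subunit of the matrix arm, averaged 38.4 ± 1.96 scaled FPKM in LIT-927 prostates (SD, n = 4) and 32.9 ± 1.95 in vehicle prostates (SD, n = 3). Atp5pb averaged 156.2 ± 14.4 scaled FPKM in LIT-927 prostates (SD, n = 4) and 129.1 ± 6.49 in vehicle prostates (SD, n = 3). Exons of Ndufb11 and Uqcrb overlap those of Rbm10 and Gm10767 on the other strand, and the sources used here do not give the strand setting of the counting, so reads of these pairs cannot be told apart. The same limit holds for others: 21 members in all overlap a measured gene on the other strand, among them Cox4i1, Ndufs1, Atp5a1 and Cox6a2.

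**Figure D3:**
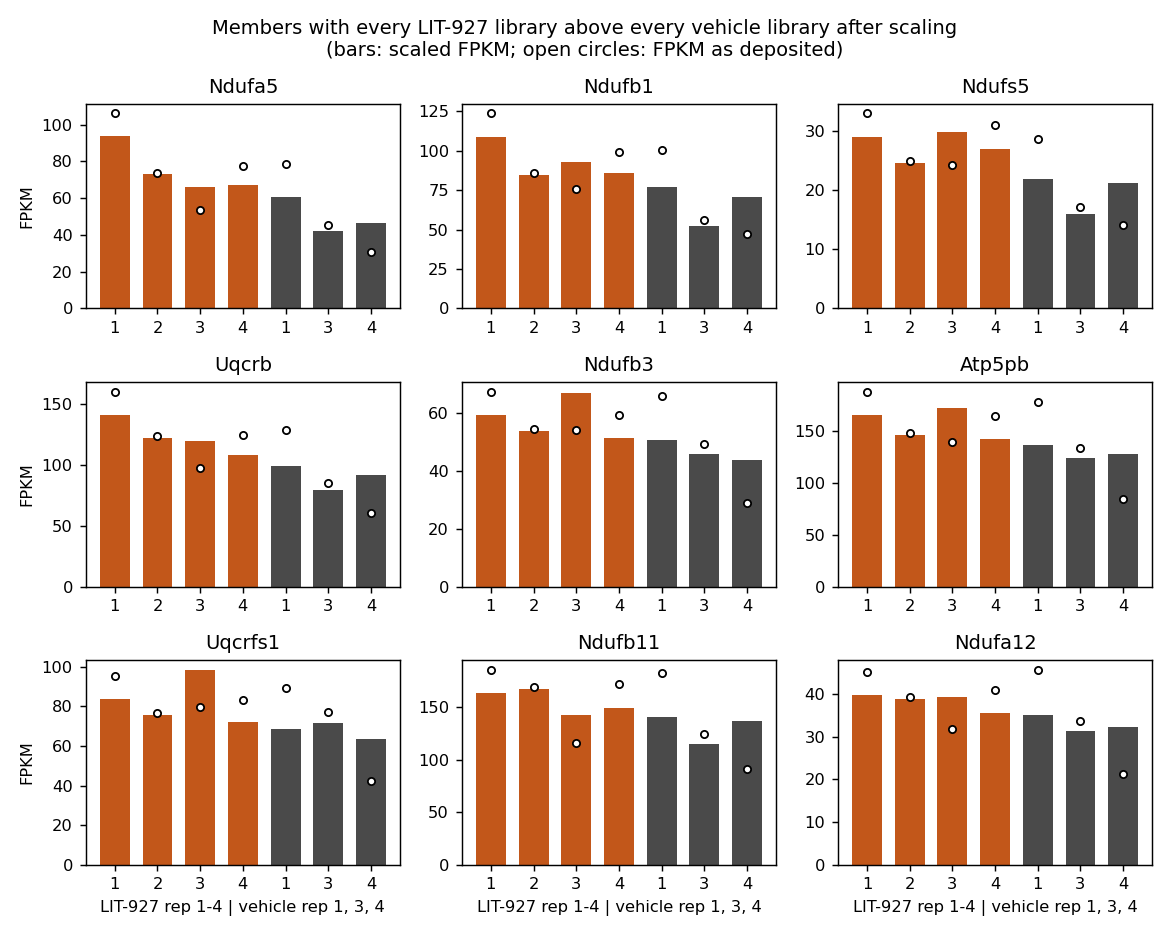
Scaled FPKM (bars) and FPKM as deposited (open circles) in each library for the 9 members in which every LIT-927 library (orange, replicates 1 to 4) lay above every vehicle library (grey, replicates 1, 3 and 4) after scaling. Every orange bar is higher than every grey bar, while the circles overlap between the groups in all 9 genes; vehicle replicate 1 was divided by its factor of 1.30 and vehicle replicate 4 by 0.663.

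For members well above 1 FPKM, setting each against the median member of its own library needs no scaling between libraries. On that measure, Uqcrb, Ndufs5 and Ndufb1 lay higher in every LIT-927 library than in any vehicle library, with differences of 0.26, 0.28 and 0.30 in log2(FPKM + 1). Atp5b and Sdhb lay lower in every LIT-927 library, with differences of -0.21 and -0.13. Ndufa4l2 did too, at -0.68, but it is near 1 FPKM, where this measure leans on the added 1. No share over all genes was computed on this measure, so the few members that separated the groups are given as values only. The 3 that lay higher are among the 9 members above. The other 6 of the 9 overlapped between the groups on this measure. No test was made of these relative levels.

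Level and transcript length went with the difference among all genes, and their part in the members' result was not tested. Among the 4315 genes with a mean of at least 10 FPKM, the scaled median difference was 0.07 and 64.4% were higher with LIT-927, beside 0.15 and 92.2% for the 77 members at that level. Under a length of 700 bases, the scaled median was 0.23 for 33 members and 0.17 for all 217 such genes. From 700 to under 1500 bases it was 0.15 for 25 members and 0.11 for all 857 genes. At 1500 bases and over, where 19 members lie, it was 0.05 for the members and 0.05 for all 3241 genes. The median length of the 9 members above was 750 bases, and that of the other 77 members was 754. The longest of the 9 had 1313 bases, and all 9 had a mean of at least 10 FPKM. At that level, every LIT-927 library lay above after scaling in 6.54% of all genes and 11.7% of members. Under 700 bases the shares were 8.29% and 12.1%, from 700 to under 1500 they were 11.6% and 20.0%, and at 1500 and over 5.09% and 0.0%.

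Promoters of 2 genes are shown because they carry the letters of the site of NRF1, a transcription factor known for activating nuclear genes of the respiratory chain, and because one belongs to the 9 members above. Both are from RefSeq on GRCm38.p6, minus strand, written 5′ to 3′, and end 51 bases before the annotated start. Capitals mark the NRF1 letters, GCGCA and GCGC with any 1 base between them, and the E-box letters CAGCTG of the muscle factors MyoD and myogenin. The Ndufs5 stretch is chr4:123718237-123718436 and that of Cox6a1, the common form of a complex IV subunit, is chr5:115349009-115349208.
Ndufs5: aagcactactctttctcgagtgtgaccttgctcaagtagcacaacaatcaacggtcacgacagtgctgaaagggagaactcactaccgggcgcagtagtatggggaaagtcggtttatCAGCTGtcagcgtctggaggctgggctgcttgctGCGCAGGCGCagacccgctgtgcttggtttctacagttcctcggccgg
Cox6a1: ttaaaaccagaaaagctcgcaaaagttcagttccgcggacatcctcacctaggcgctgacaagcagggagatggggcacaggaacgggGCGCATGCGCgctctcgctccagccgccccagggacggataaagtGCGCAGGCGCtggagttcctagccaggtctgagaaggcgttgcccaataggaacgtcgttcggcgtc

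The NRF1 letters begin 98 bases before the start of Ndufs5, and 162 and 117 bases before that of Cox6a1. The 250 bases before the start were searched on both strands in the 69 members with a RefSeq promoter, of which 13 held the NRF1 letters (18.8%), beside 981 of 12589 genes (7.79%). CCGGAAG, the letters of the ETS-family factor GABP, were found in 12 members (17.4%), beside 13.3% of genes. Of the 9 members that separated the groups after scaling, 8 had a promoter and 2 of these held the NRF1 letters, Ndufa5 and Ndufs5. Cox6a1, with 2 such stretches, had a scaled difference of 0.06 (SE 0.16). A match is a description of the letters and does not show binding.

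Several complex IV subunits exist as a common form and a form restricted to muscle or other tissues, and these pairs gave the sharpest differences between single libraries. Cox6a2 (chromosome 7, 128205435 to 128206366), the heart and skeletal muscle form of subunit 6a, was at 0.05, 0.00, 0.05 and 0.04 FPKM in LIT-927 replicates 1 to 4, and at 0.05, 23.4 and 0.04 FPKM in vehicle replicates 1, 3 and 4. Vehicle replicate 3 alone held it, with 521 recovered fragments, where the other libraries had 0 or 1. Cox8b (chromosome 7, 140898942 to 140900446), the muscle form of subunit 8, was at 0.34, 0.00, 0.43 and 0.24 FPKM in LIT-927 replicates 1 to 4, and at 0.57, 28.8 and 0.31 FPKM in vehicle replicates 1, 3 and 4. Its fragments numbered 354 in vehicle replicate 3 and at most 7 in any other library.

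The muscle form of subunit 7a, Cox7a1, was present in all libraries and was also highest in vehicle replicate 3. It had 5.92, 5.66, 1.83 and 4.68 FPKM in LIT-927 replicates 1 to 4, and 4.39, 14.3 and 2.46 FPKM in vehicle replicates 1, 3 and 4. As a share of each pair's summed FPKM, vehicle replicate 3 had 8.25% Cox6a2, 9.29% Cox8b and 15.1% Cox7a1. The other 6 libraries had at most 0.0238% Cox6a2 and 0.174% Cox8b, and 2.14% to 4.87% Cox7a1. The group differences of Cox8b (-1.67, SE 1.0) and Cox6a2 (-1.53, SE 1.03), the lowest of all members, thus rested on 1 library, and neither was called (limma adjusted p = 0.998). Without vehicle replicate 3 they were -0.21 and -0.01.

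Markers of fast skeletal muscle moved with these isoforms in the same library. Tnnt3, the fast troponin T, was at 146.7 FPKM in vehicle replicate 3 and at 0.98 FPKM or less in every other library. Myh4, the fast IIB myosin heavy chain, was at 35.1 FPKM there and at 0.48 FPKM or less elsewhere, and Pvalb was at 20.7 FPKM there and at 0.11 FPKM or less elsewhere. The 10 skeletal muscle markers were all detected and summed to 94.1 to 613.5 FPKM in LIT-927 libraries and to 311.3 to 1238 FPKM in vehicle libraries. Acta1 made up most of that sum outside vehicle replicate 3. Of 3 measured heart and slow muscle markers, Tnnt2, the cardiac troponin T, was also highest in vehicle replicate 3, at 20.5 FPKM beside 1.84 to 9.08 FPKM elsewhere. Myh7, the slow and cardiac myosin heavy chain, was at 0.023 FPKM or less in every library, and Tnnc1 at 0.62 FPKM or less.

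**Figure D4:**
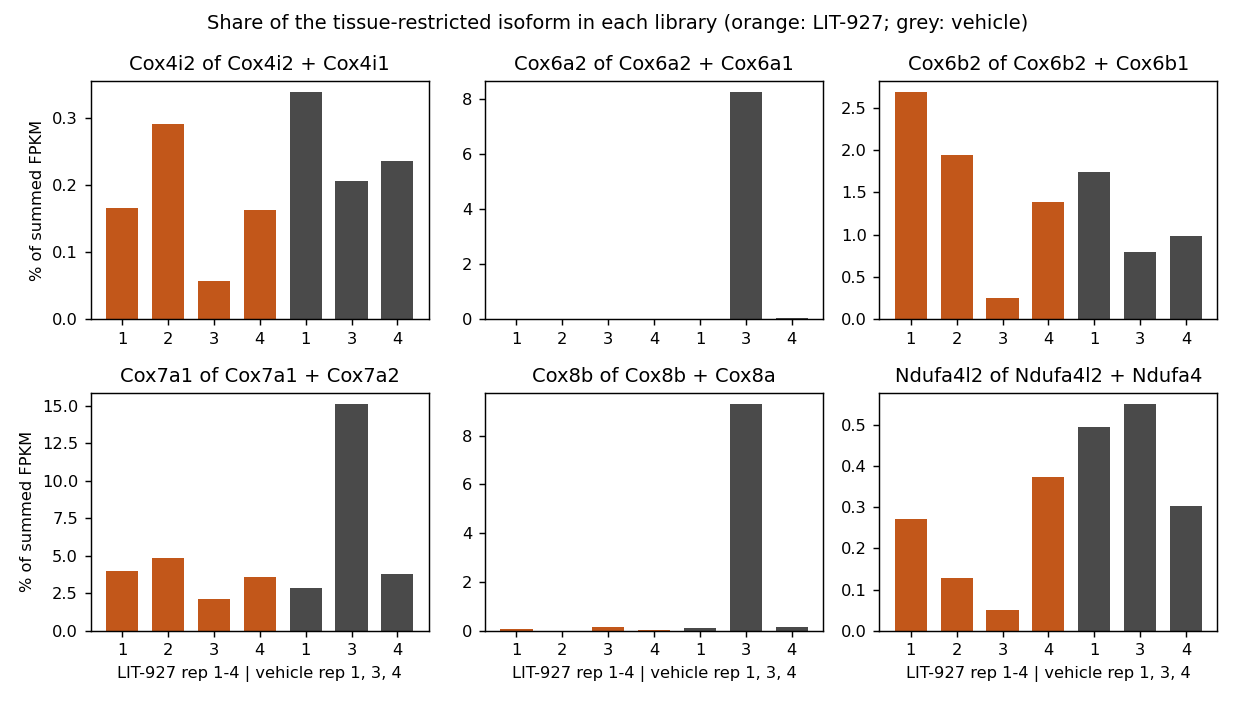
Share of the tissue-restricted isoform in the summed FPKM of each pair, in % and per library, for LIT-927 replicates 1 to 4 (orange) and vehicle replicates 1, 3 and 4 (grey); each panel has its own axis from 0. Cox6a2, Cox8b and Cox7a1 stand out in vehicle replicate 3 at 8.25%, 9.29% and 15.1%, while the shares of Cox4i2, Cox6b2 and Ndufa4l2 overlap between the groups.

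The promoters of Cox8a and Cox8b are set side by side because they belong to the common and the muscle form of one subunit. Both are the 250 bases before the annotated start, from RefSeq on GRCm38.p6, minus strand, written 5′ to 3′, at chr19:7217617-7217866 for Cox8a and chr7:140900447-140900696 for Cox8b. Capitals mark the E-box letters CAGCTG.
Cox8a: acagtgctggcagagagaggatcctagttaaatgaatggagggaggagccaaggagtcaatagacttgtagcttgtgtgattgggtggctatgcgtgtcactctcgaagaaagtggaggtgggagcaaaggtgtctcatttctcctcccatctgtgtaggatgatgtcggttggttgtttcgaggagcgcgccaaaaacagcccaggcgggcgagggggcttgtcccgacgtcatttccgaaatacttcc
Cox8b: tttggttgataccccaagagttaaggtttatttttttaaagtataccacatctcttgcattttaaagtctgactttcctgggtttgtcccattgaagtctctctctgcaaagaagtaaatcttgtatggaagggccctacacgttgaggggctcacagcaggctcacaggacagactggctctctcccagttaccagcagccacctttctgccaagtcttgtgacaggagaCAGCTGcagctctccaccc

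The E-box letters begin 19 bases before the start of Cox8b and are not in the window of Cox8a. They were in 6 of the 69 member promoters (8.7%) and in 14.9% of genes, and the letters of the muscle factor MEF2, CTA and TAG with any 4 bases between them, were in 1 member promoter (1.45%) and in 3.4% of genes. Cox8a itself was at 451.2, 339.5, 246.0 and 456.4 FPKM in LIT-927 replicates 1 to 4, and at 493.1, 281.1 and 180.8 FPKM in vehicle replicates 1, 3 and 4. Vehicle replicate 3, the library high in Cox8b, lay within the range of the others for Cox8a.

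In the other 3 isoform pairs, vehicle replicate 3 did not stand apart as it did for the muscle forms. Ndufa4l2 (chromosome 10, 127509274 to 127517154), a relative of Ndufa4 known as a target of hypoxia signalling, had 1.22, 0.40, 0.14 and 1.34 FPKM in LIT-927 replicates 1 to 4, and 2.35, 1.39 and 0.49 FPKM in vehicle replicates 1, 3 and 4. These levels overlap. The log2 ratio of Ndufa4l2 to Ndufa4, each as FPKM + 1, averaged -7.65 ± 0.28 in LIT-927 libraries (SD, n = 4) and -6.88 ± 0.23 in vehicle libraries (SD, n = 3), and every LIT-927 library lay below every vehicle library. That ratio leans on the added 1, since Ndufa4l2 itself is near 1 FPKM. Its plain share of the pair was 0.272%, 0.128%, 0.0504% and 0.374% in LIT-927 replicates 1 to 4, against 0.495%, 0.550% and 0.303% in vehicle replicates 1, 3 and 4, and these overlap.

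Values that bear on Ndufa4l2 also varied between libraries. An exon of it overlaps Shmt2 on the other strand. The 6 pericyte markers, of a cell type known to express it, summed to 17.8, 11.7, 8.46 and 16.7 FPKM in LIT-927 replicates 1 to 4, and to 34.0, 23.3 and 7.56 FPKM in vehicle replicates 1, 3 and 4. Smooth muscle markers, 6 genes, summed to 3321, 2075, 587.2 and 4178 FPKM in the LIT-927 libraries, and to 7378, 2715 and 2025 FPKM in the vehicle libraries. Both lists, like Ndufa4l2, were lowest within the LIT-927 group in replicate 3 and highest overall in vehicle replicate 1. That order is not particular to them: of the 77 abundant members, 62 were lowest within that group in replicate 3. In 50 of the 77 the highest value was that of vehicle replicate 1. The part of these cell types in the Ndufa4l2 level was not tested.

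Cox4i2, the form of subunit 4 known from lung and from low oxygen, was low throughout, at 0.97, 1.39, 0.26 and 1.06 FPKM in LIT-927 replicates 1 to 4, and at 2.37, 1.02 and 0.62 FPKM in vehicle replicates 1, 3 and 4. Its difference was -0.25 (SE 0.31). Cox6b2, the testis form of subunit 6b, had 8.59, 4.70, 0.51 and 4.07 FPKM in LIT-927 replicates 1 to 4, and 5.73, 1.71 and 1.40 FPKM in vehicle replicates 1, 3 and 4. Its order within the LIT-927 group was that of 4 vas deferens and epididymis markers, which summed to 20190, 10650, 18.9 and 7388 FPKM there, against 9616, 99.4 and 1999 FPKM in vehicle replicates 1, 3 and 4. In the vehicle group the orders differed: Cox6b2 was lowest in replicate 4 and the marker sum in replicate 3. The LIT-927 order is not particular to Cox6b2. Ndufs1 had it too, at 26.15, 22.93, 15.68 and 21.36 FPKM in LIT-927 replicates 1 to 4, as did Ndufa10. The part of that tissue in the Cox6b2 level was not tested. Of 5 germ cell markers, 2 were measured and summed to at most 1.75 FPKM.

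Some other lists of nuclear genes of mitochondria leaned the same way as the members, while glycolysis did not. Over all genes, 55.5% were higher with LIT-927 as deposited and 50.3% after scaling, with a scaled median of 0.00. Among genes with a mean of at least 10 FPKM, 64.4% were higher after scaling, with a scaled median of 0.07. The part of level and length in these lists was not tested. Of 45 measured assembly factors of complexes I to V, 41 had a higher mean with LIT-927 as deposited and 38 after scaling, with a scaled median difference of 0.17. Among them, Coa3, an assembly factor of complex IV, had 119.6, 103.4, 95.3 and 107.3 FPKM in LIT-927 replicates 1 to 4, and 104.2, 76.6 and 42.0 FPKM in vehicle replicates 1, 3 and 4, with a difference of 0.60 (SE 0.31). Sdhaf4, an assembly factor of complex II, had a difference of 0.65 (SE 0.33), and Sdhaf3, another, one of -0.15 (SE 0.25). Of 78 mitochondrial ribosomal proteins, 75 were higher with LIT-927 as deposited and 71 after scaling, with a scaled median of 0.15. No gene of any of these lists was called, as in the table as a whole (a background of 0.0%).

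Of the other lists, electron carriers and other entry points were higher with LIT-927 in 21 of 22 genes, as deposited and scaled, with a scaled median of 0.13, and Coq7, an enzyme of ubiquinone synthesis, had a difference of 0.52 (SE 0.30). In the tricarboxylic acid cycle, 16 of 18 genes were higher as deposited and 13 after scaling, with a scaled median of 0.09, Idh2 at 0.55 (SE 0.35) and Fh1, the fumarase, at -0.13 (SE 0.34) as deposited. Of 19 mitochondrial carriers and channels, 15 were higher as deposited and 11 after scaling, with a scaled median of 0.03. The 23 regulators of mitochondrial biogenesis had a scaled median of 0.02, and the gene of the factor NRF1, Nrf1, averaged 0.94 ± 0.14 FPKM in LIT-927 prostates (SD, n = 4) and 1.04 ± 0.28 FPKM in vehicle prostates (SD, n = 3). After scaling, Nrf1 differed by -0.09 (SE 0.07) and lay lower in every LIT-927 library than in any vehicle library, and it was not called (limma adjusted p = 0.731).

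Glycolysis had 9 of 19 genes higher with LIT-927 as deposited and 7 after scaling, with medians of -0.04 and -0.10. Pfkp, the platelet form of phosphofructokinase, was at 1.96, 1.02, 0.69 and 3.47 FPKM in LIT-927 replicates 1 to 4, against 10.2, 3.96 and 2.45 FPKM in vehicle replicates 1, 3 and 4. The liver form, Pfkl, lay the other way, at 25.3 ± 6.80 FPKM in LIT-927 prostates (SD, n = 4) and 17.4 ± 2.75 FPKM in vehicle prostates (SD, n = 3). Their differences, -1.15 (SE 0.49) and 0.49 (SE 0.26), were not called (limma adjusted p = 0.998). Eno3, the muscle enolase, was highest at 20.96 FPKM in vehicle replicate 3, the library that also held Cox6a2 and Cox8b.

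**Figure D5:**
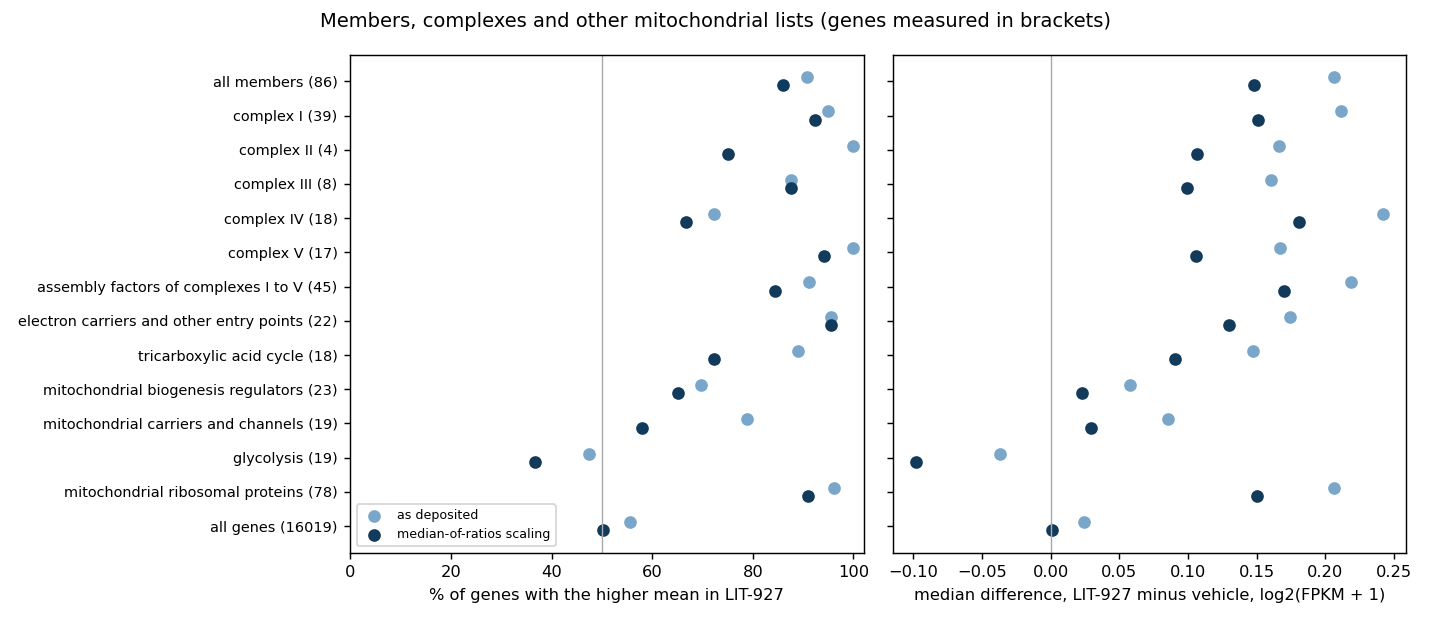
For the members, each complex, 7 other lists and all genes, the % of measured genes with a higher mean log2(FPKM + 1) with LIT-927 than with vehicle (left) and the median difference (right), as deposited (light) and after median-of-ratios scaling (dark). The members lie at 90.7% and 86.0%, the mitochondrial ribosomal proteins at 96.2% and 91.0%, glycolysis at 47.4% and 36.8%, and all genes at 55.5% and 50.3%.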

How the data were processed

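Per the labels' protocols, TRIzol was used to extract total RNA and a VAHTS Universal V6 kit to build the libraries. Tools named in the submitters' processing notes are HISAT2, HTSeq and fastp, with the build mm10; the sources used here do not give versions, roles or the strand setting. The authors deposited FPKM; the headers name no unit, so it was read from the values, which are whole multiples of a step set by gene and library. Fragments recovered from the steps, whole within 0.01 for all 16019 genes, served for depth and voom.

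From these, limma 3.58.1 (R 4.3.3, mean-variance trend) was fitted to log2(FPKM + 1) of all genes in 7 libraries, with no filter, scaling or covariate, and Benjamini-Hochberg adjustment at a threshold of 0.05. That scale understates changes of low genes. The code was tested on simulated data. Alternatives used a pseudocount of 0.1, genes with 1 FPKM in 3 libraries, 2 scalings, voom, a replicate block and fewer libraries.

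RefSeq (GRCm38.p6) matched 86 of 86 members and gave coordinates and 69 promoters. Named were 26 fixed members and the 4 with the smallest p in each direction, and of other lists those with the smallest p; other members were named after their values were seen. A member among the fixed ones is not reported here. Members, lists and tests were chosen with earlier results of these data known. Figures were drawn with matplotlib 3.10.9.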

Additional observations from a re-analysis of the deposited data

Results flagged for a closer look

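In the LIT-927 group, the one group with 4 libraries, each named member, each isoform ratio and the median of the members and of each complex were searched for a library far from the other 3, 41 results in all. Chance alone gives such a library in about 5% of groups, and 4 of the 41 results had one. The 41 results share members and are not independent. Uqcrc1, the core subunit of complex III, was at 6.07 on the log2(FPKM + 1) scale in LIT-927 replicate 3 as deposited. The other LIT-927 libraries lay at 6.42 to 6.44. After median-of-ratios scaling, Uqcrc1 had 75.5, 83.7, 81.5 and 74.4 FPKM in replicates 1 to 4, so replicate 3 no longer stood apart. Atp5md, the small ATP synthase subunit, was at 7.49 in LIT-927 replicate 1 as deposited, above the others at 7.01 to 7.07. Scaled, Atp5md had 157.5, 130.4, 164.4 and 110.5 FPKM in replicates 1 to 4, and replicate 1 was not the highest. Cox6a2, the muscle form of subunit 6a, was at 0.00 in LIT-927 replicate 2, which had 0 recovered fragments where the others had 1, so this is a gap of 1 fragment. The log2 ratio of Cox8b to Cox8a was -7.43 in LIT-927 replicate 3, above the others at -8.53 to -8.40. Cox8b had only 4, 0, 5 and 3 recovered fragments in replicates 1 to 4. That ratio therefore leans on the added 1 and on Cox8a, which was lowest of the group in replicate 3.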

How the results depend on the processing

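No gene was called under any alternative run. At an unadjusted p under 0.05, 589 genes and 0 members passed as deposited, and 1321 genes and 7 members passed with voom on recovered fragments. The count of members with a higher mean with LIT-927 was 24 to 82 of 86 with each library left out in turn, the lowest without vehicle replicate 4, where the median difference was -0.07 and those of all 5 complexes were below 0. The count of members with every LIT-927 library above after scaling, an alternative added after seeing the data, was 0 as deposited (1.08% of all genes) and 10 to 44 with a library left out (4.89% to 9.66% of all genes). For isoform pairs, the value compared was the LIT-927 minus vehicle difference in the log2 ratio. That of Cox7a1 to Cox7a2 changed from -0.66 to 0.18 without both replicates 3, the libraries with high uroplakin transcripts. That of Ndufa4l2 to Ndufa4 was -1.26 with a pseudocount of 0.1.

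Many differences changed sign, and not only those near 0: as deposited, Cox7a1 was at -0.34, Cox6b2 at 0.36 and Ndufa4 at 0.35. With median-of-ratios scaling, upper-quartile scaling and voom, the differences were -0.041, -0.065 and -0.042 for Sdhd and -0.021, -0.046 and -0.019 for Atp5b. Without both replicates 3 they were 0.15 for Uqcrc1 and 0.57 for Cox7a1. With each library left out, as deposited or scaled, the lowest and highest differences were as follows. In complex I, Ndufs1 ran from -0.10 to 0.33 and Ndufv1 from -0.16 to 0.27. In complexes II and III, Sdha ran from -0.034 to 0.42, Sdhb from -0.16 to 0.36, Sdhc from -0.10 to 0.47, Sdhd from -0.32 to 0.35 and Uqcrc1 from -0.17 to 0.11. In complex IV, Cox4i1 ran from -0.13 to 0.57, Cox4i2 from -0.48 to 0.047, Cox6a1 from -0.18 to 0.48, Cox6b1 from -0.022 to 0.57, Cox6b2 from -0.017 to 0.89, Cox7a1 from -0.80 to 0.27, Cox8a from -0.040 to 0.68 and Ndufa4 from -0.014 to 0.75. In complex V, Atp5a1 ran from -0.12 to 0.36, Atp5b from -0.24 to 0.26, Atp5g1 from -0.060 to 0.30, Atp5g2 from -0.19 to 0.36 and Atp5g3 from -0.16 to 0.34. Beyond the scaling and the libraries left out, the cause was not tested. With a library left out, the group difference in the log2 ratio of Cox7a1 to Cox7a2 ran from -1.16 to 0.03. The group difference for Cox6b2 to Cox6b1 ran from -0.18 to 0.51. The other named members kept their direction and their side of the threshold. The other gene lists, and members outside the naming rule, were recomputed with median-of-ratios scaling only.

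Replicate numbers were not taken to pair the samples, and whether they do is not settled here. Deviations of same-numbered libraries correlated at 0.57, 0.70 and -0.24 for numbers 1, 3 and 4. LIT-927 replicates 1 and 3 correlated best with their own number, while LIT-927 replicate 4 correlated best with vehicle replicate 1, at 0.64. With the number as a replicate block, 0 genes were called, the median member difference was 0.22 and 79 members were higher. LIT-927 replicate 2 has no vehicle library of its number here and adds nothing to these differences. Without that library the median and the count were the same.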
